A study of Homo sapiens with 6 samples.

Results

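The genes described here are 32 human genes of cholesterol synthesis and its control by the transcription factor SREBP-2. They are 21 enzymes of the mevalonate and sterol pathway, 7 genes of the SREBP machinery and 4 of sterol transport inside the cell, picked by symbol as a pathway list. All 32 were found among the 27470 genes of the count table. They were measured in 22Rv1-ABHD5 cells, human prostate cancer cells of a castration-resistant line into which ABHD5, a coactivator of the triglyceride lipase ATGL, was placed behind a doxycycline (Dox)-inducible promoter on a lentiviral vector, with selection in G418. Both conditions carried the transgene. The 3 libraries labelled Control came from cells grown without Dox, and the 3 labelled OE, for overexpressing ABHD5, from cells grown with Dox for 48 h, according to the design text. A Dox dose for these libraries is not given in the sources used here. Parent cells given Dox were not analysed here, so effects of Dox and of ABHD5 cannot be told apart.

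Cells build cholesterol from acetyl-CoA. The mevalonate enzymes make isoprenoid units, squalene synthase joins these into squalene, and a chain of oxidases, reductases and isomerases turns squalene into cholesterol. When sterols are plentiful in the endoplasmic reticulum, INSIG proteins hold SCAP and its cargo SREBP-2 there. When sterols are scarce, SCAP carries SREBP-2 to the Golgi, where the proteases encoded by MBTPS1 and MBTPS2 release the part that enters the nucleus and drives most genes of the pathway, SREBF2 and INSIG1 among them. Prostate cancer cells can use cholesterol for membranes and as the precursor of steroids.

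The promoters of the genes were searched for known DNA elements of sterol control. The set of RefSeq promoter windows used here, in GRCh38.p14, holds a window around the start site for 29 of the 32 genes. It lacks ACAT2, FDFT1 and SQLE. The 250 bases before each start were searched on both strands for 3 motifs: TCACNCCAC, a form of the sterol response element bound by SREBPs; the palindrome TCACGTGA, an E-box; and CCAAT, the box bound by NF-Y, which works together with SREBPs at many sterol genes. No motif overlaps another in the stretches shown. The stretches printed come from the 4 genes with a match whose fall with Dox had the smallest adjusted p values, and from SREBF2, whose product drives the pathway. Each stretch leaves out bases that GENCODE 44 annotates as UTR or coding sequence. Capitals mark matches to the motifs, with ATTGG being CCAAT on the other strand. The MVK stretch lies inside the gene as GENCODE 44 draws it, where the start of the RefSeq window is further in. The stretches are, in order, chr22:41832855-41833104 (+ strand), chr5:43313513-43313662 (- strand), chrX:48521558-48521805 (+ strand), chr7:155297628-155297775 (+ strand) and chr12:109573581-109573792 (+ strand).
SREBF2 upstream stretch: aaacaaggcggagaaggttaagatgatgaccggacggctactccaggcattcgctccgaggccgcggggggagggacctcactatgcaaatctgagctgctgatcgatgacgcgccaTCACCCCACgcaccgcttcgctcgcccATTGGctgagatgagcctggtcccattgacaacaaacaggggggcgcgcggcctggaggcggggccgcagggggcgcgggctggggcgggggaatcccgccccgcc
HMGCS1 upstream stretch: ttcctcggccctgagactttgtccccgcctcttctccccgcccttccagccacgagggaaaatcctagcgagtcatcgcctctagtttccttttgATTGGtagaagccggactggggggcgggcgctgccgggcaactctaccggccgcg
EBP upstream stretch: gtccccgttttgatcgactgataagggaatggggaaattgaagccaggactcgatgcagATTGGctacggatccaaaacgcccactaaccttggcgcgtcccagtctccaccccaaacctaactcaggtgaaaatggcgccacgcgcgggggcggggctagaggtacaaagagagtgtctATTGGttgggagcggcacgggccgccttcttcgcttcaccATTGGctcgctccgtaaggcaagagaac
INSIG1 upstream stretch: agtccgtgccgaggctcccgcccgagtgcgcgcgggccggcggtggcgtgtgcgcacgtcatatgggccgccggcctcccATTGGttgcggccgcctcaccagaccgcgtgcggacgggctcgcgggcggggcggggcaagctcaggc
MVK upstream stretch: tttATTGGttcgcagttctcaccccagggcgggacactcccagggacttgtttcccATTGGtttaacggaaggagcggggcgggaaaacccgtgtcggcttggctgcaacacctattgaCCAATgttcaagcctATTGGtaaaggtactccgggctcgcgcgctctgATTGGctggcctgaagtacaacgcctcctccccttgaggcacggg
SREBF2 was the only gene of the 29 with TCACNCCAC, whose first base lies 133 bases before the start, and 0.883% of the 35116 windows searched hold it. INSIG1 was the only gene with TCACGTGA, 56 bases before the start and outside the stretch shown, against 0.854% of all windows. CCAAT was found in 19 of 29 genes, or 65.5%, and in 37.0% of the 27305 genes with a window. It was present in 12 of the 15 genes that were lower with Dox and in 7 of the other 14. MVK and NSDHL each held 5 copies, and EBP held 3. A match is a description of the letters, and no match says only that these letters are not in the window.

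Reads were primed at the poly(A) tail, so a count stands for the 3ʹ end of a transcript and is not proportional to its length. Libraries held 3394672 to 7271771 counts on genes, and 32.5% to 34.6% of the listed reads without Dox and 35.6% to 39.5% with Dox lay on no gene. After a filter on low counts, 12233 genes remained, to which the quasi-likelihood test of edgeR was applied. Values are CPM, counts scaled by TMM to a common library size, and p-values are adjusted by Benjamini-Hochberg over all 12233 genes. ABHD5, on chromosome 3 from 43690108 to 43734371, had 63.5, 58.0 and 62.8 CPM without Dox and 125.9, 130.8 and 91.7 with Dox, with a log2 fold change of 0.91 (adjusted p = 1.98e-04). Reads of the transgene and of the cell's own ABHD5 were not told apart, and ABHD5 shares 170 exon bases with ANO10 on the opposite strand. The 10 luminal prostate markers were all detected, with a sum of 1739 to 1843 CPM without Dox and 1138 to 1268 with Dox. Of these 10, 6 were lower with Dox at an adjusted p under 0.05, against 13.7% of all genes tested. The part of these markers in the changes of the sterol genes was not tested. The sums were 3.13 to 6.12 CPM for 5 immune, 4.96 to 9.98 for 5 fibroblast and 0 to 0.310 for 4 endothelial markers over the 6 libraries. PECAM1, VWF, CDH5 and CD3E, which define endothelial and T cells, had 0 counts in every library. COL1A1, a fibroblast collagen gene with 5 to 58 counts, had a log2 fold change of 1.22 (adjusted p = 0.0313). LUM, of the same list, went the other way with -0.78 and did not pass (adjusted p = 0.190). COL1A2, COL3A1 and DCN did not pass the filter on low counts. Nothing in the labels says that the 3 libraries of a condition came from separate cultures, so p-values may measure technical spread only.

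All 32 genes passed the filter. With Dox, 17 were lower at an adjusted p under 0.05, against 13.7% of all genes tested. Another 2 were higher, FDFT1 and FAXDC2, against 11.9% of all genes. The other 13 did not pass the threshold. With scaling to library totals alone, 12 were lower and 4 higher. The median log2 fold change of the 32 was -0.45, and that of all genes tested was 0.02. In the same 17 genes every library with Dox lay below every library without Dox, which held for 20.5% of all genes tested. In 3 genes every library with Dox lay above, against 19.0% of all genes. These were FDFT1, FAXDC2 and MBTPS1. Lower genes made up 13 of the 21 enzymes, 2 of the 7 genes of the SREBP machinery and 2 of the 4 transport genes. The plot of each gene by library shows the separation.

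**Figure D1:**
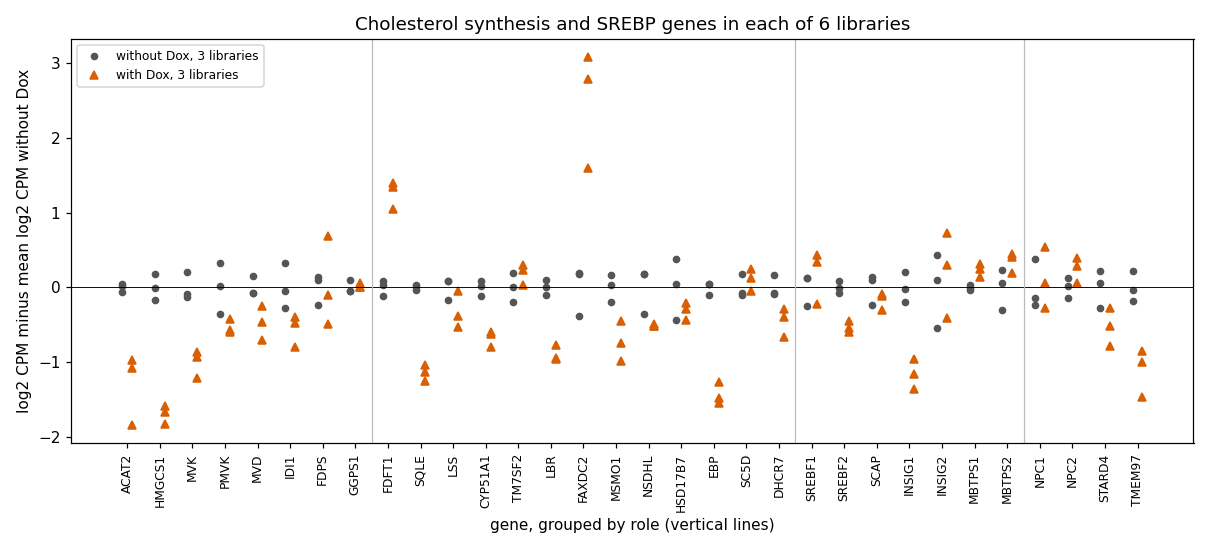
Level of each of the 32 genes in each library, as log2 CPM minus the mean log2 CPM of the 3 libraries without Dox; circles are libraries without Dox, triangles libraries with Dox, and vertical lines separate the 4 role groups. The triangles lie below all circles in 17 genes and above them in FDFT1, FAXDC2 and MBTPS1.

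In the mevalonate part, 6 of 8 genes were lower at an adjusted p under 0.05 and 0 were higher, against 13.7% and 11.9% of all genes tested. The lowest log2 fold change of all 32 genes was that of HMGCS1. HMGCS1, on chr5:43287470-43313512, encodes the cytosolic HMG-CoA synthase. It had 1028, 913 and 1165 CPM without Dox and 323, 344 and 290 with Dox. Each library with Dox was below each library without, by a wide gap. The log2 fold change was -1.70 ± 0.13 (SE), with an adjusted p of 6.30e-08, or 3.25-fold lower, and by p HMGCS1 ranked 25 among the 5932 tested genes with a value under 0. ACAT2, which makes acetoacetyl-CoA for HMGCS1, had 74, 67 and 117 counts without Dox and 44, 37 and 43 with Dox. Its log2 fold change was -1.30 ± 0.24 (SE), with an adjusted p of 6.43e-04. ACAT2 shares 454 exon bases with TCP1 on the opposite strand, and TCP1 was also lower, with a log2 fold change of -0.50 (adjusted p = 0.00585); whether reads were counted by strand is not given in the sources used here.

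The mevalonate kinase gene MVK had 108.4, 132.7 and 105.4 CPM without Dox and 60.2, 62.9 and 49.4 with Dox. The groups did not overlap, and the log2 fold change was -1.01 ± 0.14 (SE), with an adjusted p of 4.96e-05. The next 3 enzymes also fell, with values nearer 0. PMVK, the phosphomevalonate kinase gene, had a log2 fold change of -0.55, MVD, the decarboxylase gene, -0.45, and IDI1, the isomerase gene that interconverts the isoprenoid units, -0.57 (adjusted p = 0.0154, 0.0272 and 0.0114). These calls were lost in some settings with 1 library left out. Fewer of all genes tested also passed in those settings, 2181 to 3112 against 3125 with every library. PMVK and MVD lost their calls with scaling to library totals alone too. Without replicate 2 without Dox, PMVK had -0.38 (adjusted p = 0.0956), and without replicate 1 with Dox -0.53 (0.0652). MVD had -0.39 without replicate 1 without Dox (0.122), and -0.45 and -0.35 without replicates 1 and 2 with Dox (0.0857 and 0.0817). IDI1 had -0.39 without replicate 3 without Dox (0.0795).

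Neither prenyl synthase gene passed the test. GGPS1, which makes the geranylgeranyl group used to anchor proteins in membranes, had 73.4, 80.6 and 72.8 CPM without Dox and 78.5, 76.0 and 75.5 with Dox. The levels overlapped, and the log2 fold change was 0.02 ± 0.13 (SE), with an adjusted p of 0.923. FDPS, the farnesyl diphosphate synthase gene, had only 19 to 31 counts in any library and a log2 fold change of 0.06 with a standard error of 0.35. FDPS has 8 named pseudogene copies and shares 693 exon bases with RUSC1-AS1 on the other strand, so its counts are uncertain.

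FDFT1, the squalene synthase gene at chr8:11795573-11839395, rose, while SQLE, the next enzyme of the chain, fell. It had 827, 746 and 859 CPM without Dox and 2049, 1669 and 2124 with Dox. The lowest library with Dox was far above the highest without. The log2 fold change was 1.26 ± 0.14 (SE), with an adjusted p of 2.43e-06, or 2.40-fold higher, and it passed in all 14 alternative settings. SQLE, the squalene epoxidase gene that acts on the product of FDFT1, had 132.4, 128.7 and 135.5 CPM without Dox and 55.2, 64.3 and 60.6 with Dox. It was 2.21-fold lower, a log2 fold change of -1.14 ± 0.13 (SE), with an adjusted p of 3.61e-06. LSS, the lanosterol synthase gene that follows SQLE, had 53.0 to 63.3 CPM without Dox and 41.2 to 57.4 with Dox, which overlap. Its log2 fold change of -0.30 did not pass (adjusted p = 0.167) and reached -0.46 without replicate 3 with Dox (adjusted p = 0.0440).

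The neighbouring genes CTSB and NEIL2 were also higher with Dox. CTSB, the gene of the lysosomal protease cathepsin B, ends 3128 bases beyond the end of FDFT1 in the opposite orientation. It had 57.2, 56.8 and 56.7 CPM without Dox and 360.8, 355.1 and 360.0 with Dox, a log2 fold change of 2.66 ± 0.12 (SE), with an adjusted p of 7.93e-11. NEIL2, a DNA repair glycosylase gene that ends 8227 bases before the start of FDFT1 on the same strand, had 17.8, 24.8 and 20.8 CPM without Dox and 33.5, 35.3 and 33.4 with Dox. Its log2 fold change was 0.69 (adjusted p = 0.00609). In GENCODE 44 the exons of FDFT1 share no base with those of a gene of the table. How far transcripts of the neighbours entered the FDFT1 counts was not tested. CTSB and NEIL2 were picked after their values were seen.

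**Figure D2:**
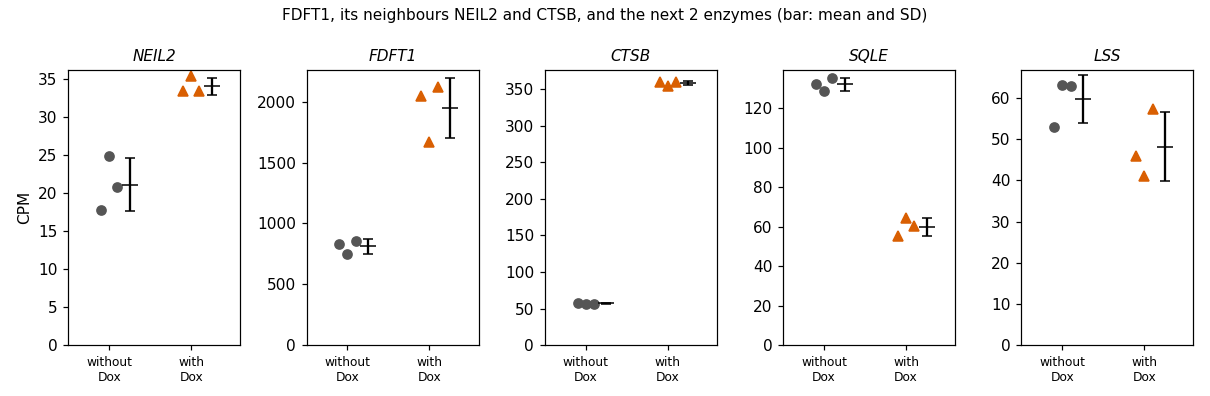
CPM of NEIL2, FDFT1 and CTSB, which lie side by side on chromosome 8, and of SQLE and LSS, the next enzymes after FDFT1; circles are libraries without Dox, triangles libraries with Dox, and bars give mean and SD (n = 3). The 3 neighbouring genes are higher in every library with Dox, SQLE is lower in every one, and LSS overlaps.

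The summed level of the enzymes differed less between conditions with FDFT1 in the sum than without it. The 20 enzymes other than FDFT1 summed to 3478 to 3869 CPM without Dox and 1885 to 1985 with Dox. With FDFT1 the sums were 4224 to 4727 and 3554 to 4109. FDFT1 made up 17.7% to 18.5% of the enzyme sum without Dox and 47.0% to 51.7% with Dox. These sums use CPM of 3ʹ reads, which are not divided by length, and are given without a test.

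Among the enzymes after lanosterol, the lowest value was that of EBP. EBP, the sterol isomerase gene at chrX:48521799-48528716, had 465, 518 and 517 CPM without Dox and 208, 180 and 171 with Dox. No libraries overlapped, and the log2 fold change was -1.42 ± 0.13 (SE), with an adjusted p of 3.14e-07, or 2.68-fold lower. LBR, which encodes a sterol reductase that is also a receptor of the nuclear lamina, had 165.6, 153.5 and 175.8 CPM without Dox and 85.2, 96.8 and 84.6 with Dox, a log2 fold change of -0.90 (adjusted p = 4.17e-05). TM7SF2 encodes a second enzyme for the same reduction. It had 59.8 to 78.5 CPM without Dox and 70.0 to 84.6 with Dox, with overlap, and a log2 fold change of 0.18 (adjusted p = 0.369). CYP51A1, the lanosterol demethylase gene, had -0.67 (adjusted p = 5.97e-04), and MSMO1, which oxidises the methyl groups of the sterol ring, had -0.71 (adjusted p = 0.00150). Both kept their calls in all 14 settings.

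NSDHL, a dehydrogenase gene of the same demethylation, had a log2 fold change of -0.52 (adjusted p = 0.0181), and DHCR7, the reductase gene of the last step, had -0.44 (adjusted p = 0.0246). NSDHL did not pass without replicate 1 or 2 without Dox (-0.44 each, adjusted p = 0.0951 and 0.0737) or without replicate 1 with Dox (-0.51, 0.0648). DHCR7 did not pass without replicate 1 without Dox (-0.37, 0.121) or without replicates 1 or 2 with Dox (-0.46 and -0.35, 0.0661 and 0.0728). SC5D, a sterol desaturase gene, had 74.4 to 90.1 CPM without Dox and 76.8 to 94.9 with Dox, and its log2 fold change of 0.10 did not pass. HSD17B7, the ketoreductase gene, had 21 to 66 counts and a log2 fold change of -0.37 with a standard error of 0.27 that did not pass. It has 2 named pseudogene copies.

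FAXDC2, a gene of the fatty acid hydroxylase family to which MSMO1 and SC5D also belong, had the largest log2 fold change of the 32 genes and, without Dox, the lowest mean CPM. It had 6, 5 and 6 counts without Dox and 19, 34 and 88 with Dox, or 1.39 ± 0.295 and 8.38 ± 3.83 CPM (SD, n = 3 each). All libraries with Dox were higher, and they ranged from 4.13 to 11.6 CPM. The log2 fold change was 2.64 ± 0.44 (SE), with an adjusted p of 2.69e-04, and lay between 2.28 and 2.96 with 1 library left out. FAXDC2 shares 163 exon bases with CNOT8 on the opposite strand.

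**Figure D3:**
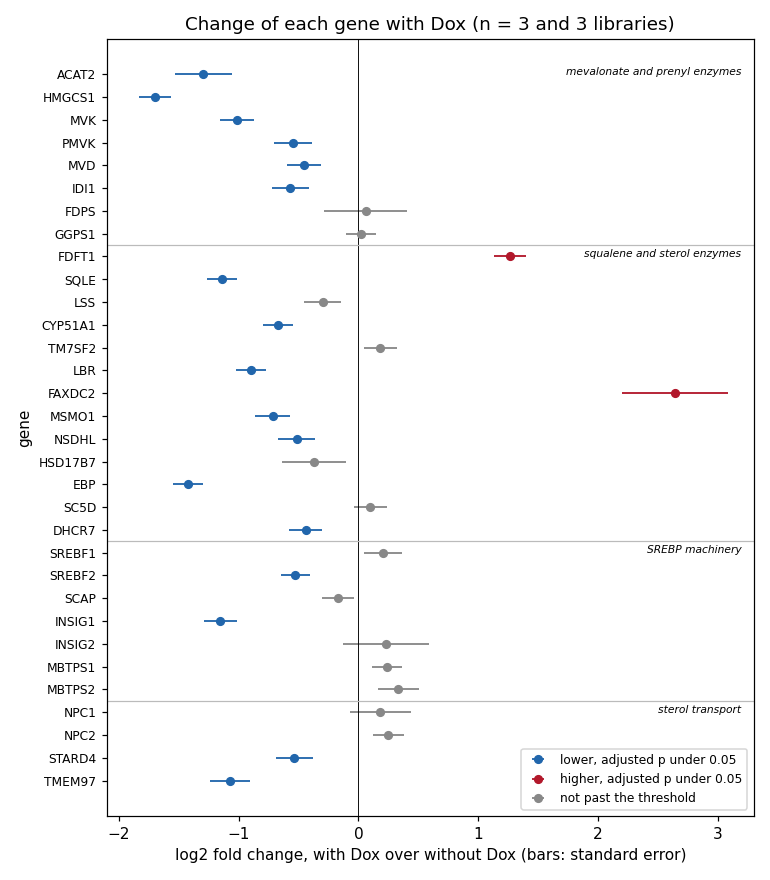
Log2 fold change of each gene, with Dox over without Dox, from edgeR's quasi-likelihood test, in the order of the pathway; bars are standard errors, and colours mark genes lower (17), higher (2) or not past an adjusted p of 0.05 (13). FDFT1 and FAXDC2 stand on the right of the chain of lower enzymes, and the prenyl synthases FDPS and GGPS1 lie near 0.

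In the SREBP machinery, INSIG1 and SREBF2 were lower at an adjusted p under 0.05, and 0 of 7 genes were higher. Over all genes tested, 13.7% were lower and 11.9% higher. The median log2 fold change of the 7 genes was 0.21, with 3 below 0. INSIG1, at chr7:155297776-155310235, had 482, 429 and 564 CPM without Dox and 252, 191 and 220 with Dox. Every library with Dox was lower, and the log2 fold change was -1.15 ± 0.14 (SE), with an adjusted p of 1.16e-05. SREBF2, at chr22:41833105-41907306, whose promoter holds the TCACNCCAC match shown above, had 305, 285 and 274 CPM without Dox and 198, 190 and 211 with Dox. Its log2 fold change was -0.53 ± 0.12 (SE), with an adjusted p of 0.00344, and it passed in all 14 settings. SREBF1, which encodes SREBP-1, the form that mainly drives fatty acid synthesis, had 109.2 to 141.9 CPM without Dox and 111.6 to 175.2 with Dox, with overlap and a log2 fold change of 0.21 (adjusted p = 0.380).

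SCAP, both protease genes and INSIG2 did not pass the test. SCAP, the escort protein gene, had a log2 fold change of -0.17 (adjusted p = 0.382). MBTPS1, the gene of the first Golgi protease, had 64.8, 67.9 and 65.6 CPM without Dox and 82.4, 72.9 and 78.3 with Dox, without overlap, and a log2 fold change of 0.24 that did not pass (adjusted p = 0.186). MBTPS2, the gene of the second protease, had 0.33 (adjusted p = 0.156) and shares 1093 exon bases with YY2, a gene on the same strand. INSIG2, the INSIG gene that sterols regulate less, had 9 to 38 counts and a log2 fold change of 0.23 with a standard error of 0.36.

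Among the transport genes, TMEM97 and STARD4 were lower and the NPC genes did not pass. TMEM97, an endoplasmic reticulum protein gene whose product binds NPC1, had 66.1, 78.8 and 59.5 CPM without Dox and 37.4, 24.5 and 33.9 with Dox. The gap was wide, and the log2 fold change was -1.07 ± 0.17 (SE), with an adjusted p of 1.47e-04. STARD4, a cytosolic sterol carrier gene, had -0.53 (adjusted p = 0.0155). It did not pass without replicate 1 or 3 without Dox (-0.53 and -0.42, adjusted p = 0.0569 and 0.0820) or without replicate 3 with Dox (-0.41, 0.0567). NPC1 and NPC2 encode the pair of proteins that export cholesterol from lysosomes. NPC1 had 36 to 135 counts and a log2 fold change of 0.18 with a standard error of 0.25. NPC2 had 218.0 to 261.7 CPM without Dox and 250.7 to 315.9 with Dox, and a log2 fold change of 0.25 (adjusted p = 0.171).

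Ratios within a library do not depend on the scaling between libraries, and 6 pairs of related genes were compared this way. They use the same counts as the values above, so they are not separate evidence of a change. The log2 ratio of INSIG1 to INSIG2 was 6.42, 7.19 and 6.99 without Dox and 5.20, 5.90 and 5.44 with Dox, a difference of -1.35. For LBR over TM7SF2 it went from 1.26 ± 0.261 to 0.18 ± 0.108 (SD, n = 3 each), close to equal counts with Dox. SREBF1 over SREBF2 went from -1.15 ± 0.220 to -0.43 ± 0.291, FDFT1 over GGPS1 from 3.42 ± 0.187 to 4.66 ± 0.183, and MSMO1 over FAXDC2 went from 7.72 ± 0.411 to 4.61 ± 0.757. In these 5 pairs the conditions did not overlap, and the exact permutation test over samples (two-sided) gave p = 0.1, the smallest that 3 against 3 libraries allow (0.12 adjusted over the 6 pairs). NPC1 over NPC2 overlapped, with -4.30 ± 0.464 and -4.44 ± 0.253 (exact permutation p = 0.7).

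**Figure D4:**
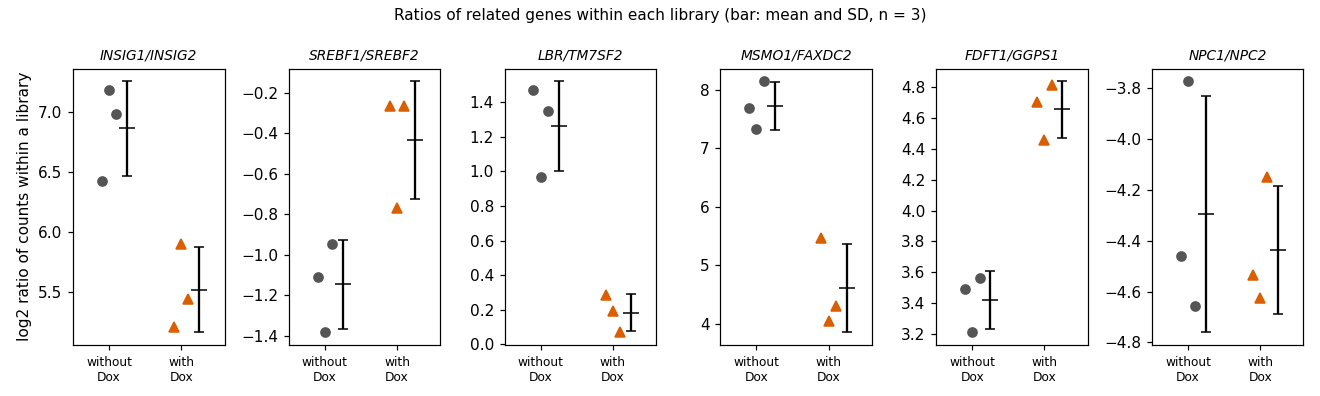
Log2 ratio of counts of 6 pairs of related genes within each library, with 0.5 counts added to both genes; circles are libraries without Dox, triangles libraries with Dox, and bars give mean and SD (n = 3). In 5 pairs the conditions separate, and NPC1 over NPC2 overlaps.

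Some counts are less certain than others. Of the 32 genes, 14 have a named pseudogene copy or share exon bases with another gene of the table, and 6 of these were lower and 1 higher. Of the 18 without either, 11 were lower and 1, FDFT1, was higher. This sorting does not cover reads from neighbouring genes such as CTSB, whose part in the FDFT1 counts was not tested. The 6 lower genes among the 14 were ACAT2, MVK, IDI1, CYP51A1, STARD4 and TMEM97, and the higher one was FAXDC2. IDI1 and CYP51A1 have 3 named pseudogene copies each, and TMEM97 has 2. On the opposite strand, IDI1 shares 643 exon bases with IDI2-AS1, TMEM97 361 with IFT20 and MVK 225 with MMAB. The counts of these genes are therefore less certain too.

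Genes around the pathway were read from lists compiled by hand. Over all genes tested, 13.7% were lower and 11.9% higher, the shares to set beside the counts of each list. Of 14 genes tested that use isoprenoids, 3 were lower and 0 higher by edgeR's quasi-likelihood test. PDSS1, a prenyl synthase gene of coenzyme Q synthesis, had a log2 fold change of -1.10, COQ2, which attaches that chain, -0.59, and DOLK, the dolichol kinase gene, -0.52. Leaving out replicate 1 without Dox took COQ2 to -0.57 (adjusted p = 0.0640). DOLK kept its call, with 1 library left out, only without replicate 1 with Dox, and had -0.55 to -0.44 without any of the other 5 (adjusted p = 0.0730 to 0.0955). Of 12 regulators of SREBPs and sterol-dependent degradation, 0 were lower and 2 higher. RNF145, a sterol-responsive ubiquitin ligase gene that is an LXR target, had 59.3, 53.3 and 48.0 CPM without Dox and 108.9, 105.7 and 144.6 with Dox, a log2 fold change of 1.17 (adjusted p = 1.87e-05).

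Of 14 genes of sterol uptake and storage, 3 were lower and 3 higher. The higher ones were MYLIP, an LXR target whose product degrades lipoprotein receptors, with 1.07 on the log2 scale, LIPA, the lysosomal acid lipase gene, with 0.68, and STARD3, a late endosomal sterol carrier gene, with 0.56. The lower ones were SCARB1, a lipoprotein receptor gene, with -0.49, SOAT1, a cholesterol ester synthase gene, with -0.40, and NCEH1, a cholesterol ester hydrolase gene, with -0.58. SCARB1 did not pass once replicate 2 with Dox was left out (-0.36, adjusted p = 0.0572), nor did SOAT1 without replicates 1 or 3 without Dox or 3 with Dox (-0.41 to -0.38, 0.0511 to 0.0782), or NCEH1 without those or replicate 2 with Dox (-0.59 to -0.45, 0.0651 to 0.171). Of 8 targets of SREBP-1 in fatty acid synthesis, 4 were lower and 0 higher, and the median log2 fold change was -0.44. Among them SCD, the stearoyl-CoA desaturase gene, had 1109, 1036 and 1310 CPM without Dox and 621, 477 and 485 with Dox, and a log2 fold change of -1.13. FADS1, a desaturase gene of polyunsaturated fatty acids, had 330.2, 382.1 and 359.6 CPM without Dox and 83.7, 86.5 and 70.7 with Dox. Of 3 genes of the sterol efflux list that were tested, NR1H2, which encodes an LXR receptor, was higher with 0.53. The other 2 did not pass. NR1H2 lost its call without any 1 of replicates 2 and 3 without Dox and 1 and 3 with Dox (0.36 to 0.54, adjusted p = 0.0838 to 0.187). Whether LXR activity changed was not tested. Over these 5 lists, 10 of 51 genes tested were lower and 6 higher, beside 13.7% and 11.9% of all genes, and their median was -0.07. Without replicate 1 without Dox, 6 were lower.

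Proliferation markers were lower in the same libraries. All 9 of the 10 listed that were tested were lower with Dox, against 13.7% of all genes tested. The sum of the 10 was 3847 to 4230 CPM without Dox and 1896 to 2229 with Dox. Their part in the change of the sterol genes was not tested. In bulk RNA, fewer cells of a kind and less RNA per cell cannot be told apart.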

How the data were processed

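Total RNA of 22Rv1-ABHD5 cells was sequenced as QuantSeq 3ʹ libraries, 3 without and 3 with Dox. The authors used CASAVA 1.8.2, FastQC, STAR on hg38 and edgeR, and the submitters' processing notes also name HTSeq. The labels name the forward kit and the methods the reverse kit. The annotation and the strand setting are not given in the sources used here. The authors deposited a matrix of raw counts by gene symbol and, for each library, a normalized signal made by a method that is not given. Rows that name no gene were left out; reads on no gene were 32.5% to 39.5% of those listed.

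Counts were tested with edgeR 4.0.16 in R 4.3.3 (filterByExpr, TMM, quasi-likelihood test, no covariate, Benjamini-Hochberg adjusted p under 0.05). Standard errors are the size of the log2 fold change over the square root of F. A count of 3 or fewer, 0.413 to 0.884 CPM on library totals, was taken as the limit of detection. It covers counting error only, since reads carry no molecular identifiers, and no sterol gene was that low in any library. The test was checked on simulated counts, where the share of false calls was somewhat above the threshold set on the adjusted p. Alternatives were other scalings and filters, DESeq2 1.42.0, limma 3.58.1 on log2 of the deposited signal + 1, a replicate block, and leaving out 1 library at a time. All 32 genes could be named, and from each other list at most the 3 with the smallest adjusted p under 0.05 per direction; CTSB, NEIL2, TCP1 and the cell type markers fall outside this rule. The values of 1 gene of the other lists are not reported here. The genes and lists were chosen with earlier results of these data known. SPRING1 was found as C12orf49 through RefSeq. Positions are from GENCODE 44 on hg38.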

Additional observations from a re-analysis of the deposited data

How the results depend on the processing

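Over 14 alternative settings, 13 of the 19 called genes kept direction and call wherever they were tested, and 0 of the 19 changed sign. The other 6, DHCR7, IDI1, MVD, NSDHL, PMVK and STARD4, lost their call in at least 1 setting. The number lower was 13 to 17 with each library left out in turn, 12 with library totals alone and 17 in every other setting. The number higher was 1 with at least 10 counts in every library, where FAXDC2 was not tested, and 4 with library totals alone, where MBTPS1 and NPC2 joined. Library totals alone moved the median over all genes from 0.02 to 0.14 (log2 fold change), and that of the 32 genes from -0.45 to -0.32; the share of all calls that were higher went from 46.4% to 65.7%. In the other lists 5 genes were then lower and 10 higher, and without a filter 10 were higher. Those lists had 6 to 9 genes lower and 4 to 9 higher with each library left out in turn, with 6 lower without replicate 1 without Dox.

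Among genes not called, the sign of the log2 fold change turned for 4 when 1 library was left out. GGPS1 ranged from -0.013 to 0.061 (below 0 without replicate 1 or 3 without Dox), FDPS from -0.30 to 0.33 (without replicate 3 without Dox or 2 with Dox), INSIG2 from -0.023 to 0.43 (without replicate 1 with Dox) and NPC1 from -0.091 to 0.37 (without replicate 3 with Dox). The ratio of NPC1 to NPC2 turned without replicate 2 without Dox (0.12). The cause was not tested. The r of deviations gave no clear pairing of the libraries by replicate number (-0.01, 0.23 and 0.09, with only number 2 correlating best with itself). With the replicate block 17 of the 32 genes were lower and 2 higher, with a median of -0.45. Over all genes tested, 3537 were called with the block and 3125 without it. FDPS, HSD17B7, INSIG2 and NPC1 had low counts and wide standard errors, and counting error was not separated from the spread between libraries.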
